A study of Mus musculus with 6 samples.

Results

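The 7 genes described here make the desaturases and elongases that build long-chain polyunsaturated fatty acids, together with their nearest relatives. They were taken by their symbols, Fads1, Fads2, Fads3, Elovl1, Elovl2, Elovl3 and Elovl5, from the 20673 genes listed in a liver RNA sequencing study. The livers came from 6 C57BL/6J mice, a wild-type inbred strain. In the RD group, 3 mice ate a regular diet, and in the HCD group, 3 mice ate a high cholesterol diet for 3 days. The HCD held added cholesterol, cocoa butter and sodium cholate and more fat than the RD, so that the parts of these agents in any difference cannot be told apart. Livers were taken at the end of the feeding, not after the septic surgery that the study used elsewhere, and the labels give neither the age nor the sex of a mouse. The comparison asks how these genes differ in the liver after a short exposure to the HCD.

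Desaturases place double bonds in fatty acids, and elongases catalyse the first step of adding carbon pairs to them. Mammals cannot make linoleic and alpha-linolenic acid, and the liver turns these dietary fats into arachidonic, eicosapentaenoic and docosahexaenoic acid by alternating the 2 kinds of step. Fads2 encodes the delta-6 desaturase, which takes the entry step of the route, and Fads1 the delta-5 desaturase, which makes arachidonic and eicosapentaenoic acid. Fads3 is a relative of both that desaturates sphingoid bases. Elovl5 and Elovl2 elongate polyunsaturated chains, with Elovl2 taking the longer ones, while Elovl1 and Elovl3 act mainly on saturated and monounsaturated very long chains.

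The enzymes of each family share a short motif, around which a window of each of the 7 genes was placed. Each window below holds 60 bases of coding sequence of GRCm38 mouse genome, read 5′ to 3′ on the gene's own strand, with the exons of GENCODE M21. In the 3 desaturases the capitals mark the codons of the haem-binding motif in the cytochrome b5-like domain, through which these enzymes receive electrons. They lie in exon 1 of each gene, at chr19:10183190-10183249 (plus strand) in Fads1, chr19:10101238-10101297 (minus strand) in Fads2 and chr19:10041882-10041941 (plus strand) in Fads3.
Fads1: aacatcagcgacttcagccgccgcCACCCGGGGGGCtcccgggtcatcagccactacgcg
Fads2: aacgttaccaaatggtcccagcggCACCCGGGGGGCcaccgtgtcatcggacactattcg
Fads3: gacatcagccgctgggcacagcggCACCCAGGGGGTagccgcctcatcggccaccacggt

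The elongases share a histidine box, a short motif in the catalytic part of the enzyme, and the capitals mark its codons, of which the first and the last pair encode histidine. The windows lie at chr4:118431430-118431489 (plus strand, exon 6) in Elovl1, chr13:41189980-41190039 (minus strand, exon 5) in Elovl2, chr19:46134398-46134457 (plus strand, exon 4) in Elovl3 and chr9:77976826-77976885 (plus strand, exon 5) in Elovl5.
Elovl1: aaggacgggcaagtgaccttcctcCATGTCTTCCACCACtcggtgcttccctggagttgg
Elovl2: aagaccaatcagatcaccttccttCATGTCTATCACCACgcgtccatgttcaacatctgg
Elovl3: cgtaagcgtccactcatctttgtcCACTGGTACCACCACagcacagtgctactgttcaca
Elovl5: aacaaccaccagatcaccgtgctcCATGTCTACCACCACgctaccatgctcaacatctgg

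Translated from their coding sequences, the 3 desaturases were 54.2% (Fads1 and Fads3) to 62.8% (Fads2 and Fads3) identical, and Fads1 and Fads2 shared 59.8% of aligned residues. Elovl2 and Elovl5, the elongases of polyunsaturated chains, were 59.4% identical, whereas the other pairs of elongases shared 30.1% to 37.8%. Despite this kinship, none of the 7 genes had a stretch of at least 200 bases at 90% identity or more with another gene's transcripts. Shorter stretches, over which reads of 2 genes could still be confused, were not searched over all transcripts. Elovl1 and Elovl3, for example, shared 92.2% of 51 aligned coding bases.

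The 3 desaturase genes are neighbours on chromosome 19 of GRCm38. Fads3 (ENSMUSG00000024664) runs from 10041569 to 10060110 on the plus strand, Fads2 (ENSMUSG00000024665) from 10062765 to 10101746 on the minus strand and Fads1 (ENSMUSG00000010663) from 10182888 to 10196877 on the plus strand. Elovl3 (ENSMUSG00000038754) lies on the same chromosome, from 46131897 to 46135694 on the plus strand. Elovl1 (ENSMUSG00000006390) lies on chromosome 4 from 118428093 to 118432953 and Elovl5 (ENSMUSG00000032349) on chromosome 9 from 77917364 to 77984519, both on the plus strand, and Elovl2 (ENSMUSG00000021364) on the minus strand of chromosome 13 from 41182381 to 41220405. All 7 encode proteins.

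The libraries held 13771630 to 23129576 counts on genes with RD and 13935491 to 18545549 with HCD, and a count of 0 allows up to 0.13 to 0.243 CPM (counts scaled to a common library total, with TMM factors) per library (3 counts, counting error only). HCD replicate 1 stood apart. Male and female mice were used in the study. In that library Xist, the RNA of the inactive X chromosome, stood at 254.3 CPM and in the other 5 livers at 0, while the Y-linked Ddx3y, Eif2s3y, Kdm5d and Uty were at 0 there and above 0 in the others. All 8 genes of a list biased to male liver were lowest and all 8 biased to female liver were highest in HCD replicate 1. The diet differences of the 7 genes are therefore given with and without that liver. Hepatocyte markers dominated all 6 livers, with a summed level of 59970 to 83890 FPKM (fragments scaled by gene length and library total) with RD and 65650 to 95290 with HCD.

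With RD, Elovl3 was the most abundant of the 7 RNAs per length and Fads3 the least. The deposited FPKM averaged 432.2 ± 142.1 (SD, n = 3) for Elovl3, 278.6 ± 52.51 for Fads2, 228.1 ± 48.9 for Fads1, 224.6 ± 83.2 for Elovl2, 149.0 ± 57.6 for Elovl5, 33.74 ± 0.5352 for Elovl1 and 2.723 ± 0.1219 for Fads3. Neighbours in this order overlapped between livers from Elovl3 down to Elovl5, so that the order of neighbours is not beyond the spread, whereas Elovl1 lay apart from Elovl5 above it and from Fads3 below it. Fads2 and Fads1, the desaturases of the route, both overlapped with Elovl2 in level, while Fads2 (231.3 or more) lay above Elovl5 (up to 214.7).

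With HCD the FPKM order was Elovl3 (231.5 ± 200.1), Fads2 (230.4 ± 18.07), Elovl2 (163.1 ± 12.98), Elovl5 (122.4 ± 40.77), Fads1 (106.5 ± 32.15), Elovl1 (21.2 ± 7.388) and Fads3 (2.439 ± 0.761). By mean deposited FPKM, Fads1 stood below Elovl2 and Elovl5. Fads2 lay apart from Elovl2, Fads1 from Elovl1 and Elovl1 from Fads3, and the other neighbours overlapped. The Elovl3 mean with HCD is an average of very unequal livers.

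**Figure D1:**
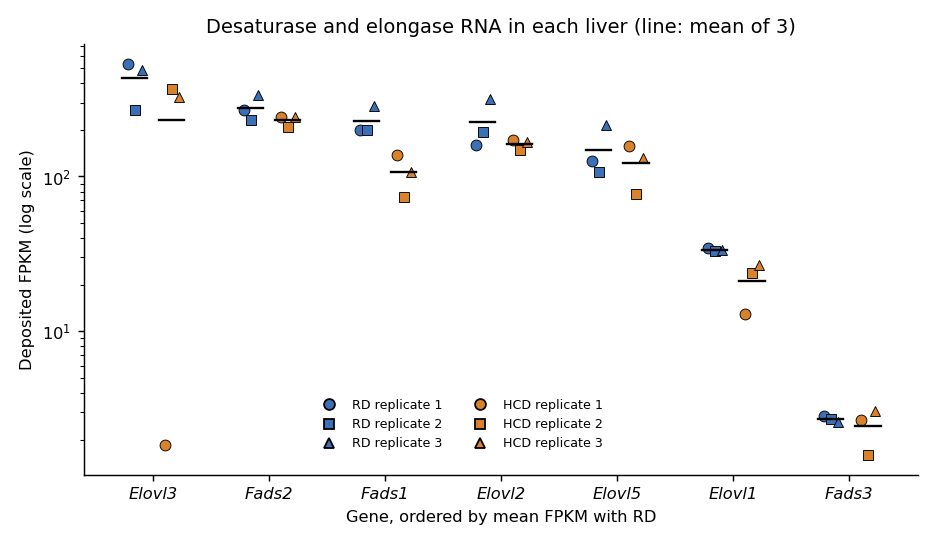
Deposited FPKM of each gene (log axis) in each of the 3 RD livers (blue) and 3 HCD livers (orange), with a line at the mean of 3; the marker shape gives the replicate number, and genes are ordered by their RD mean. Fads1 and Elovl1 lay lower in every HCD liver than in any RD liver, and Elovl3 was at 1.837 FPKM in HCD replicate 1.

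The places of Fads2 and Fads1 in these orders depend on the length by which their reads are divided. The lengths behind the deposited FPKM, worked out from counts and FPKM, were those of the exons in GENCODE M21 (tolerance 0.1%) for Elovl1, Elovl2 and Elovl5, and for 95.5% to 95.9% of the 15014 to 17787 genes per liver with a count, an FPKM above 0 and an M21 length. They were shorter for Fads2 (1508 against 3295 bases), Fads1 (3456 against 4812), Elovl3 (1494 against 1975) and Fads3 (3269 against 3792). Divided by the M21 lengths, a choice made after seeing the data, Fads2 averaged 127.5 FPKM with RD and was the fifth of the 7 instead of the second. Elovl3 remained first at 326.9, followed by Elovl2 at 224.6 and Fads1 at 163.8, so that Fads1 was below Elovl2 with RD too. With HCD the order at these lengths was Elovl3 at 175.1, Elovl2 at 163.1, Elovl5 at 122.4, Fads2 at 105.4 and Fads1 at 76.5, with each overlapping the next. Differences between diets within a gene do not depend on this length.

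Fads1 was the member that differed most clearly between the diets. Its counts, scaled to CPM with the TMM factors of edgeR, were 474.2, 482.2 and 657.9 in the RD livers, and 316.5, 176.4 and 248.0 in the HCD livers, each in the order of their replicate numbers. All HCD livers lay below all RD livers, with HCD replicate 1 nearest to them. The RD mean was 538.1 ± 103.8 CPM (SD, n = 3) and the HCD mean 247.0 ± 70.03, or 45.9% of it. Fads1 fell by 1.12 on the log2 scale (standard error 0.24), with adjusted p = 0.0453. Unless another tool is named, each adjusted p comes from the quasi-likelihood test of edgeR, adjusted by Benjamini-Hochberg over 13105 genes. In bulk liver, fewer cells that express Fads1 and less of its RNA per cell cannot be told apart.

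This call stood close to the threshold of 0.05. Without HCD replicate 1 the Fads1 log2 fold change was −1.34 (adjusted p = 0.0294, edgeR). Leaving out any other liver ended the call, with adjusted p = 0.127 without RD replicate 1, 0.127 without RD replicate 2, 0.105 without RD replicate 3, 0.0704 without HCD replicate 2 and 0.117 without HCD replicate 3, while the log2 fold change stayed between −1.21 and −0.93. DESeq2 gave −1.13 with adjusted p = 5.97e-05, and limma on log2(FPKM + 1) gave −1.12 with adjusted p = 0.0657. Over all 16 alternatives Fads1 was lower in each and called in 5.

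Fads2, whose enzyme precedes Fads1 in the route, differed less. Its CPM were 279.3, 243.2 and 338.1 with RD and 240.6, 218.5 and 242.3 with HCD. The highest HCD liver lay just under the lowest RD liver, and in FPKM the livers of the diets overlapped. The means were 286.9 ± 47.9 and 233.8 ± 13.33 CPM, with a log2 fold change of −0.30 (SE 0.16) and adjusted p = 0.333 (edgeR). It was −0.32 without HCD replicate 1, with adjusted p = 0.353 (edgeR).

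Whether the desaturases changed unequally can be asked within each liver, where the library total cancels. Fads1 FPKM over Fads2 FPKM was 0.741, 0.865 and 0.849 in the RD livers and 0.574, 0.352 and 0.447 in the HCD livers. Every HCD liver thus held less Fads1 relative to Fads2 than any RD liver. The level of this ratio depends on the lengths: at those of M21 the mean log2 ratio was 0.36 with RD and −0.51 with HCD, and only the difference between diets is free of them. The mean log2 ratio was −0.29 ± 0.12 with RD and −1.16 ± 0.35 with HCD (SD, n = 3), a difference of −0.86. The exact two-sided permutation test gave p = 0.1, the smallest that 3 livers against 3 allow, and 0.3 after adjustment over the 3 ratios tested. Leaving out each liver in turn kept the difference between −0.69 and −1.04, the latter without HCD replicate 1.

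Fads3 was measured on few reads, 52 to 133 per liver. Its CPM were 6.393, 6.209 and 5.688 with RD and 5.813, 3.585 and 6.646 with HCD. The RD livers lay within the range of the HCD livers, which was set by a low value in replicate 2 and the highest of all 6 in replicate 3. The Fads3 log2 fold change was −0.19 (SE 0.29, adjusted p = 0.749, edgeR). It was −0.26 without HCD replicate 1 and 0.03 without HCD replicate 2.

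Of the elongases of polyunsaturated chains, Elovl2 stood at 438.5, 537.0 and 845.6 CPM with RD and at 455.7, 407.1 and 442.9 with HCD. The RD livers spread widely, with replicate 3 far above the rest, and the HCD livers were close together at the low end of that spread. The Elovl2 means were 607.1 ± 212.4 and 435.2 ± 25.2 CPM. Its log2 fold change was −0.48 (SE 0.24, adjusted p = 0.293, edgeR), −0.51 without HCD replicate 1 and −0.17 without RD replicate 3.

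Elovl5, which elongates the products of the delta-6 step, was at 303.0, 263.3 and 506.0 CPM with RD and at 367.7, 189.1 and 310.3 with HCD. The diets overlapped, and RD replicate 3 was again the highest liver. The Elovl5 log2 fold change was −0.31 (SE 0.31, adjusted p = 0.604, edgeR). It was −0.52 without HCD replicate 1 and 0.03 without RD replicate 3.

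The balance between these elongases, and between Elovl5 and the desaturase that feeds it, overlapped between the diets. The mean log2 ratio of Elovl2 over Elovl5 FPKM was 0.60 ± 0.25 with RD and 0.47 ± 0.41 with HCD (SD, n = 3). The difference of −0.12 had p = 0.7 (exact two-sided permutation test) and moved between −0.36 and 0.04 as livers were left out, the latter without HCD replicate 1. For Elovl5 over Fads2 the means were −0.95 ± 0.27 and −0.97 ± 0.42 (0.18 and 0.16 at M21 lengths), with a difference of −0.02 (p = 1.0, exact two-sided permutation test) and a range of −0.20 (without HCD replicate 1) to 0.21 over livers left out.

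**Figure D2:**
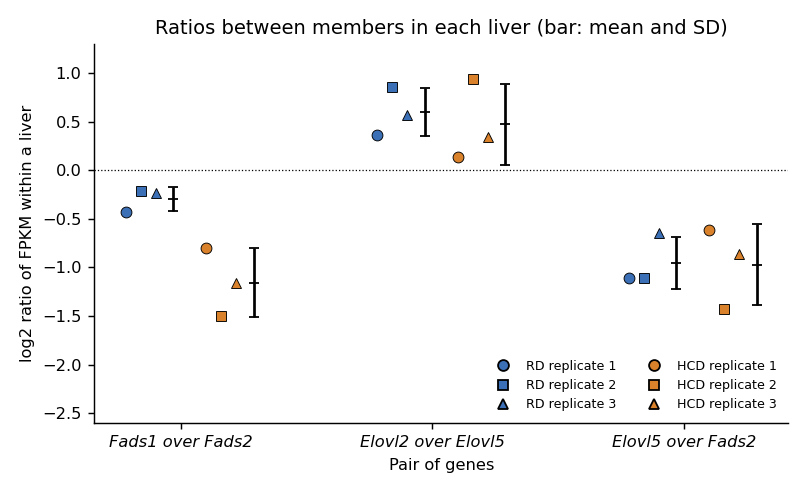
The log2 ratio of the deposited FPKM of 2 genes within each RD (blue) and HCD (orange) liver, with the mean and SD of 3 livers beside the points. Fads1 over Fads2 was lower in all 3 HCD livers (mean −1.16) than in the RD livers (mean −0.29), while the diets overlapped for the other ratios.

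Elovl1 makes very long saturated and monounsaturated chains for sphingolipids. It was nearly the same in the RD livers, at 64.26, 63.14 and 61.48 CPM, and stood at 23.3, 44.67 and 49.12 CPM in HCD replicates 1, 2 and 3. All HCD livers lay below all RD livers, with HCD replicate 1 far below the other HCD livers. The means were 62.96 ± 1.4 and 39.03 ± 13.8 CPM. The Elovl1 log2 fold change of −0.69 (SE 0.25) had adjusted p = 0.166 (edgeR), so that it was not called. Without HCD replicate 1 it was −0.43 (SE 0.13, adjusted p = 0.13), and DESeq2 gave adjusted p = 0.0723 over all 6 livers.

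Elovl3 had the widest range. Its CPM were 550.7, 281.4 and 489.9 with RD and 1.82, 380.3 and 323.2 with HCD, the first of these on 36 reads. HCD replicate 1 was the only liver that stood low, and the other HCD livers lay within the range of the RD livers. Over all 6 livers the log2 fold change was −0.91 with an SE of 1.16 (adjusted p = 0.699, edgeR). On log2(FPKM + 1) limma gave −2.57 (adjusted p = 0.439). With that liver left out the value was −0.33 (SE 0.27, adjusted p = 0.546, edgeR).

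The low Elovl3 value went with the genes of male and female liver. Elovl3 is known as a gene expressed more in male than in female mouse liver, with a daily rhythm. The median of the other 5 livers, 380 CPM, was 209 times the level in HCD replicate 1, and the lowest of them 155 times. In that liver Hsd3b5, a steroid-metabolising enzyme of male liver, stood at 0.1011 CPM. It was at 215.3 to 283.8 CPM with RD and at 205.8 and 95.72 in HCD replicates 2 and 3. Cyp2b9, a cytochrome P450 of female liver, stood at 445.0 CPM in HCD replicate 1 against at most 3.809 in the others. For 4 of the 8 male-biased genes all HCD livers lay below all RD livers, against 13.7% of all genes. Without HCD replicate 1 edgeR called 2 of the 8, both lower, where it called 342 of all 13105 genes. Of 12 circadian clock genes, HCD replicate 1 was below all other livers for 4, above all for 1 and within their range for 7. As only 1 HCD liver and no RD liver had the pattern of female liver, sex and diet cannot be told apart in its values.

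Between the diets no clock gene of 11 tested was called by edgeR, but before adjustment 3 (Npas2, Per1 and Cry1) were higher and 5 (Clock, Per2, Dbp, Nr1d1 and Nr1d2) lower with HCD, against 11.1% and 9.81% of all genes. Of the 11 tested, the livers of the diets did not overlap for 3 with HCD higher and 5 with HCD lower, against 27.6% of all genes in either direction. These are the same genes, and with 3 livers per diet a low p and no overlap go together. The log2 fold changes were 1.67 for Per1, 1.26 for Npas2 and 0.86 for Cry1, and −1.70 for Dbp, −1.54 for Nr1d1, −1.08 for Per2, −0.95 for Nr1d2 and −0.36 for Clock. Nr1d1 and Nr1d2 also stand in the list of regulators described further on. DESeq2 called 3 higher and 2 lower, against 4.85% and 3.68% of all genes. Without HCD replicate 1 edgeR called 3 (Per1, Nr1d1 and Nr1d2), where it called 342 of all 13105 genes. The part of the clock in the diet differences of Fads1, Elovl1 and Srebf1 was not tested.

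**Figure D3:**
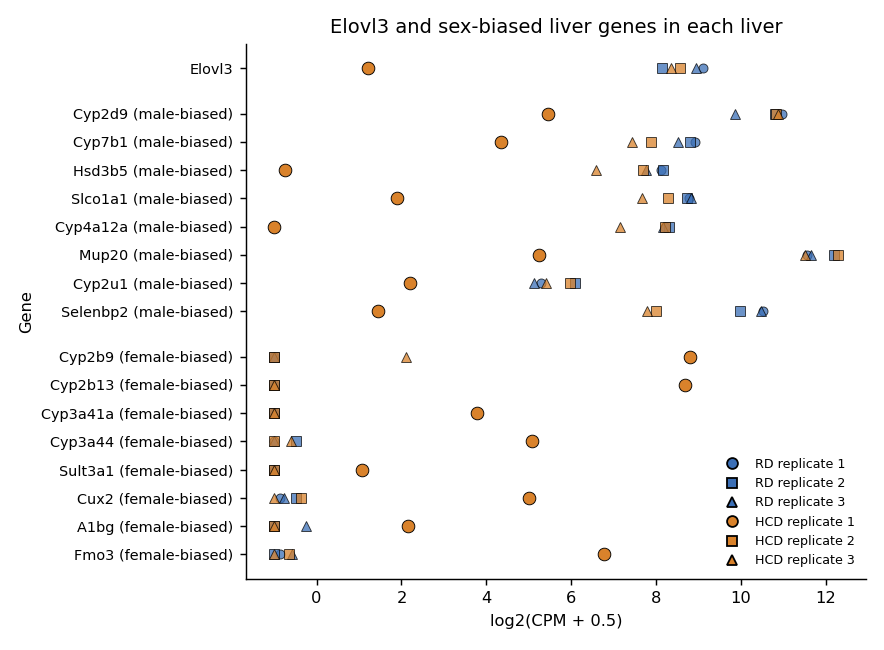
Level of Elovl3, 8 male-biased and 8 female-biased liver genes as log2(CPM + 0.5) in each RD (blue) and HCD (orange) liver. HCD replicate 1 (large orange circle) was below all other livers for Elovl3 and the male-biased genes and above all of them for the female-biased genes.

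Elovl3 and Elovl1 share a few exon bases with genes on the opposite strand, and no source used here gives the strand setting of the counting. Pitx3 overlaps Elovl3 by 10 exon bases and had 198, 53 and 273 counts in the RD livers and 1, 107 and 90 in the HCD livers, also lowest in HCD replicate 1. Cdc20, a cell cycle gene, overlaps Elovl1 by 53 exon bases and had 7 to 42 counts. Without strand, reads on these bases cannot be assigned to either gene. Pitx3 counts were at most 273 beside 3988 to 11457 for Elovl3 in the 5 livers other than HCD replicate 1, and Cdc20 counts at most 42 beside 461 to 1416 for Elovl1. Fads1 also hosts a microRNA gene, Mir6993, in an intron, with no shared exon base.

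Of the 7 members 1 was called, lower with HCD, where 1.32% of the 13105 genes tested were called lower and 3.27% in either direction. No member was called higher, by edgeR (1.95% of all genes), by DESeq2 (4.85%) or at an unadjusted p up to 0.05 in edgeR (11.1%). With that unadjusted limit, 2 of the 7 (Fads1 and Elovl1) were lower, against 9.81% of all genes. In CPM the livers of the diets did not overlap, with HCD lower, for 3 of the 7 (Fads1, Fads2 and Elovl1), against 13.7% of all genes, though Fads2 overlapped in FPKM. All 7 log2 fold changes were below 0 over the 6 livers, in edgeR and in each alternative that kept them all, against 49.3% of all genes, and their median was −0.48, where the median of all genes was 0.01. Without RD replicate 3 the log2 fold changes were −0.95 for Fads1, −0.16 for Fads2 and −0.24 for Fads3. For the elongases they were then −0.71 (Elovl1), −0.17 (Elovl2), −0.83 (Elovl3) and 0.03 (Elovl5). The members share livers and are not independent: RD replicate 3 was the highest RD liver for 4 of them (Fads1, Fads2, Elovl2 and Elovl5) and HCD replicate 2 the lowest HCD liver for 5 (these 4 and Fads3). No member other than Fads1 had an adjusted p under 0.05 in any alternative fit.

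**Figure D4:**
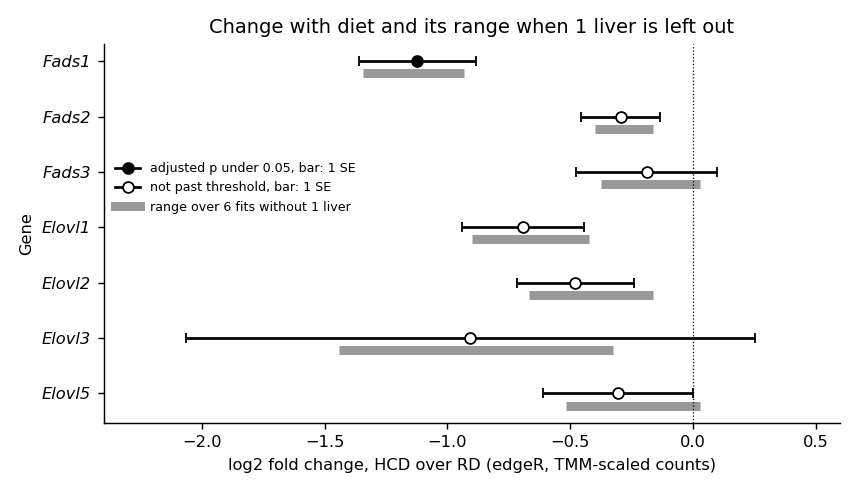
The log2 fold change of HCD over RD from edgeR for each gene, with bars of 1 SE (filled point, adjusted p under 0.05), and below each point in grey the range over 6 fits that each leave out 1 liver. Fads1 (−1.12) lay furthest below 0, and the grey ranges of Fads3 and Elovl5 crossed 0.

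Across the 6 livers, the profile of Fads1 was most like those of Ugt1a5, Josd2 and Gnai3, by Pearson's r of log2(CPM + 0.5) among 8839 protein-coding genes that averaged 5 CPM or more. The values of r were 0.99 for each of the 3, given as a description over livers that include the diet difference itself. Ugt1a5, a glucuronidation enzyme whose reads can be split with the other Ugt1a genes that share its exons, was at 11.3, 11.2 and 17.9 CPM with RD and at 4.04, 1.65 and 3.32 with HCD. Josd2, a deubiquitinase, was at 33.6, 37.8 and 43.8 CPM with RD and 21.3, 13.7 and 19.2 with HCD, and Gnai3, a G protein subunit, spanned only 80.1 to 106.0 CPM. Among the members, r with Fads1 was 0.85 for Fads2, 0.77 for Elovl2, 0.71 for Elovl5, 0.58 for Fads3, 0.47 for Elovl1 and 0.17 for Elovl3.

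Genes that work with the 7 enzymes were read from 7 lists with 74 names, of which 58 could be tested. Of these, 5 were called higher, against 1.95% of all genes, and 4 lower, against 1.32%, and their median log2 fold change was −0.06. Of the 58, only Srebf1 was called without RD replicate 1 or without RD replicate 2, while 2 genes were called without RD replicate 3 and 5 without HCD replicate 3. The counts of the single lists stand against the same shares, and those before adjustment against 11.1% of all genes higher and 9.81% lower. The microsomal partners of elongation, which complete the cycle that the elongases open, had no call among 7 tested (edgeR, none by DESeq2), a median of −0.19, and 1 gene lower with p up to 0.05 before adjustment. Tecr, the reductase that ends the cycle and the most abundant of them, was at −0.43 on the log2 scale (adjusted p = 0.196, edgeR). The electron donors of the desaturases had no call among 5 tested, with 1 higher and 2 lower before adjustment and a median of −0.48. Without HCD replicate 3 their median was −0.19, and 1 was called lower (edgeR). DESeq2, which called 8.53% of all genes in either direction, called 3 of these 5. Cyb5a, the cytochrome b5 that carries electrons to the desaturases, was their most abundant gene, with a log2 fold change of 0.66 (adjusted p = 0.102, edgeR).

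Among the other fatty acid desaturases, Fads6, a family member whose substrate is not well described, fell by 0.95 on the log2 scale (SE 0.13, adjusted p = 0.013, edgeR). It stood at 137.1, 133.7 and 157.7 CPM in the RD livers and at 78.65, 69.9 and 73.76 in the HCD livers. These values were tight within each diet and did not overlap. It was the only call of 4 tested, whose median was −0.01, with 1 higher and 1 lower before adjustment and also by DESeq2. Leaving out a liver moved that median between −0.18 (without RD replicate 1) and 0.45 (without RD replicate 3). Scd1, the delta-9 desaturase of the liver and the most abundant of this list, was at 0.81 (log2, adjusted p = 0.199, edgeR). Without HCD replicate 1 the Fads6 value was −0.99 (adjusted p = 0.0181, edgeR).

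In peroxisomes, where the last chain shortening to docosahexaenoic acid takes place, 2 of 10 genes were called, both higher, with a list median of 0.03, and 2 were higher before adjustment and by DESeq2. Ehhadh, the bifunctional enzyme of beta-oxidation, stood at 202.4, 233.5 and 252.3 CPM with RD and 860.9, 1038 and 480.4 with HCD (log2 fold change 1.79, SE 0.27, adjusted p = 0.0184, edgeR). All HCD livers were above all RD livers. Acaa1b, a peroxisomal thiolase whose reads can be split with Acaa1a, rose by 1.21 (adjusted p = 0.0254, edgeR), and Scp2, a thiolase and carrier protein, had −0.29 (adjusted p = 0.419, edgeR). Scp2 had the highest FPKM of the list over the 6 livers, but with HCD it stood at 1363 beside 1378 for Acaa1b. These enzymes also serve the general oxidation of very long and dicarboxylic fatty acids. The values without HCD replicate 1 were 1.73 for Ehhadh and 1.21 for Acaa1b.

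Genes that load polyunsaturated chains onto coenzyme A and into phospholipids had no call among 8 tested (edgeR), with 1 higher and 1 lower before adjustment and 1 call by DESeq2. Their median was −0.18, and Acsl1, the main acyl-CoA synthetase of the liver and their most abundant gene, had −0.14 (adjusted p = 0.74).

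The list of polyunsaturated fatty acid oxygenation had the largest median, 0.87, with 2 of 9 genes called, both higher. Before adjustment 6 were higher and none lower, and DESeq2 called 4, all higher, with no adjusted p for 1 gene. Cyp4a14 stood at 5.816, 17.51 and 40.64 CPM with RD and at 2054, 202.4 and 200.9 with HCD. Cyp4a10 stood at 41.1, 63.97 and 56.4 CPM with RD and at 853.1, 174.1 and 230.6 with HCD. Both encode omega-hydroxylases of fatty acids, are close copies whose reads can be split, and were highest by far in HCD replicate 1. With that liver the log2 fold changes were 5.26 (adjusted p = 0.0474, edgeR) and 2.96 (adjusted p = 0.0343, edgeR). Without it they were 3.24 (adjusted p = 0.0423) and 1.91 (adjusted p = 0.00826). Neither was called without RD replicate 1, 2 or 3 or without HCD replicate 3 (adjusted p from 0.0651 to 0.189), and Cyp4a14 was then at up to 6.14 (without RD replicate 3). With gene-length offsets only Cyp4a10 was called, and with the replicate number as a block neither was. Ephx1, an epoxide hydrolase with the highest FPKM of the list over the 6 livers, though below Ephx2 with RD (340.1 against 378.5), was at 0.91 (log2, adjusted p = 0.0836, edgeR).

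Of 15 regulators of the desaturase and elongase genes, 1 was called higher and 3 lower, and the list's median was −0.16. Before adjustment 2 were higher and 6 lower, and DESeq2 called 2 higher and 5 lower, against 4.85% and 3.68% of all genes. Srebf1, which encodes the sterol regulatory element binding protein that drives fatty acid synthesis and desaturase genes, stood at 231.4, 178.9 and 269.3 CPM with RD and 824.5, 1020 and 1159 with HCD. All 3 HCD livers were far above the RD livers, and Srebf1 rose by 2.14 (SE 0.21, adjusted p = 0.00407, edgeR) and remained called with any 1 liver left out (2.27 without HCD replicate 1). Its mean over the 6 livers, 161.3 FPKM, was the highest of the list, whereas with RD alone its 58.91 FPKM lay below Insig1 at 151.6, Rxra at 137.9, Insig2 at 90.32 and Mlxipl at 62.68. Fads1 and Fads2 are known as targets of this factor.

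The called regulators that were lower belong to the sterol-sensing arm and the nuclear receptors. Insig1, which holds the SREBP proteins in the endoplasmic reticulum, stood at 286.4, 415.7 and 263.4 CPM with RD and 109.5, 148.7 and 163.3 with HCD. Its log2 fold change was −1.20 (adjusted p = 0.0307, edgeR). Srebf2, the factor of cholesterol synthesis, fell by 1.02 (adjusted p = 0.0296), and Rxra, the partner of the liver X and peroxisome proliferator receptors, fell by 0.68 (adjusted p = 0.0449). All 3 stayed below 0 as each liver was left out, but Insig1 (adjusted p from 0.0508 to 0.116) and Rxra (0.0661 to 0.189) were then never called. Srebf2 was called only without HCD replicate 1 (adjusted p = 0.0406) and lay between 0.0521 and 0.123 without any other liver.

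**Figure D5:**
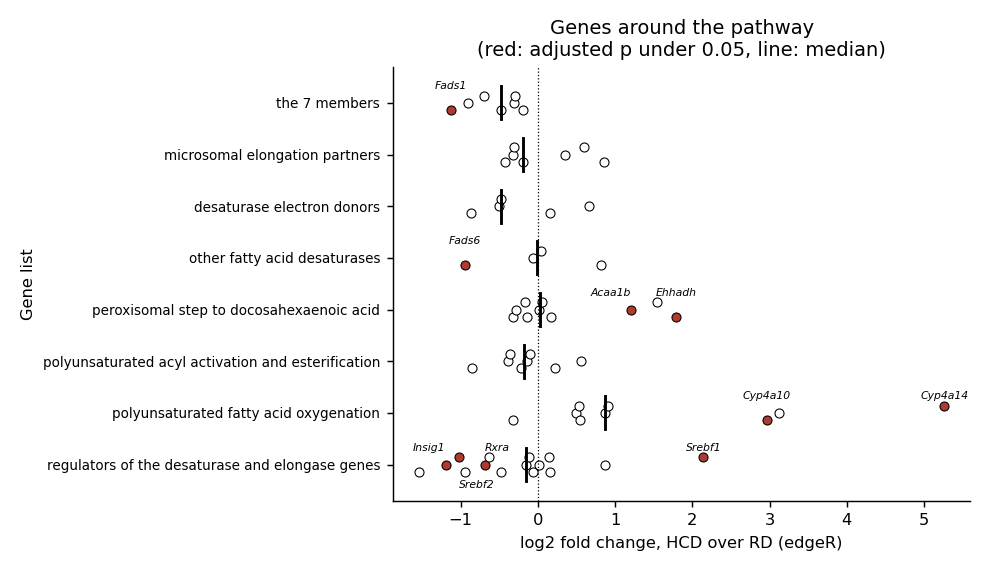
The log2 fold change of HCD over RD (edgeR) of each tested gene in the set of 7 and in 7 lists of related genes, with a line at each list's median; red points have an adjusted p under 0.05 and are named. The 7 members lay below 0, with a median of −0.48, while Srebf1 among their regulators rose by 2.14.

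Markers of the other liver cell types were compared, since a shift in cell makeup would move genes as well. Summed FPKM in the RD and HCD livers was 59.93 to 110.5 and 91.06 to 213.7 for 6 Kupffer cell markers, 28.07 to 53.03 and 34.24 to 58.45 for 6 of sinusoidal endothelium, 39.14 to 39.68 and 40.03 to 67.63 for 6 of stellate cells, and 28.66 to 73.82 and 52.95 to 78.65 for 6 of cholangiocytes. For 6 leukocyte markers it was 4.566 to 8.556 and 8.567 to 10.86, and for 3 adipocyte markers 1.201 to 1.978 and 1.244 to 1.548. No gene of these lists was called by edgeR, and DESeq2 called 1, Cd5l. Still, all 6 Kupffer cell markers had log2 fold changes above 0 (median 0.91), and so had all 6 stellate cell markers (median 0.51). Before adjustment 3 Kupffer cell markers and 1 stellate cell marker had p up to 0.05 (edgeR), against 11.1% of all genes higher. Without HCD replicate 1 these numbers were 1 and 0. The livers of the diets overlapped for every marker of both lists. Above 0 were also 5 of 6 endothelial markers (median 0.24), 4 of 5 tested cholangiocyte markers (median 0.60) and all 3 tested leukocyte markers (median 0.10), while the 1 tested adipocyte marker was at −0.11. Of the cholangiocyte markers 2, Krt19 (8 to 71 counts) and Krt7 (14 to 29 counts), were higher in every HCD liver than in any RD liver. Of all genes 27.6% did not overlap in either direction, and 13.7% did not with HCD lower. Cd5l, a protein secreted by Kupffer cells, was at 1.21 (adjusted p = 0.101, edgeR). The 5 red blood cell markers summed to 122.6 to 259.9 with RD and 329.9 to 744.3 with HCD, and 2 of them, Hba-a1 (log2 fold change 2.41, adjusted p = 0.0217, edgeR) and Hbb-bs (2.28, adjusted p = 0.0223, edgeR), were called higher. Alas2, the haem synthesis enzyme of red cell precursors, had the opposite sign at −0.70 (adjusted p = 0.612, edgeR), with 8.239 CPM in HCD replicate 1 and 96.99 to 153.7 CPM in the other livers. None of the markers in the tables was at 0 in all livers. The part of these cells in the lower Fads1 and Elovl1 values was not tested.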

How the data were processed

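RNA from the livers of 3 RD and 3 HCD mice was sequenced in 1 library per liver. The authors deposited whole-number read counts per gene, without normalization, and FPKM, fragments scaled by gene length and by a library total that is not stated. The submitters' processing notes name STAR, HTSeq, DESeq2, edgeR and the build GRCm39, with no versions or roles. Coordinates and exon lengths come from GENCODE M21 on GRCm38, whose lengths match most of the deposited FPKM. The log2 fold changes and p-values that the authors deposited hold their own comparison and were not used.

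The counts were fitted with edgeR 4.0.16 under R 4.3.3 (filterByExpr, TMM factors of 0.886 to 1.07, glmQLFit and glmQLFTest on diet without covariates). This left 13105 of 20673 genes tested, 7 members included, with a biological coefficient of variation of 27.8%. Calls were made under an adjusted p of 0.05. CPM are TMM-scaled. The fit was tested on simulated data with 200 changed genes. Alternatives were DESeq2 1.42.0, RLE factors, library sizes alone, no filter, a mean of at least 50 counts, limma 3.58.1 on log2 of FPKM plus 1 or 0.1, offsets on gene length (loess span 0.5), the replicate number as a block, and each liver left out. Transcripts were compared with minimap2 2.31. Ratios of FPKM were tested exactly over all 20 assignments.

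The members and lists were chosen with earlier results of these data known. Named are all members, the called genes (up to 4) and the most abundant gene of each list, the genes most like a called member, and genes that overlap one. The listed Tecrl, Scd4, Mboat2, Ptgs2, Cyp2c44, Plin1, Retn and Lep were not analysed here. The labels name separate livers, and the spread between them sets the precision.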

Additional observations from a re-analysis of the deposited data

How the results depend on the processing

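Fads1 was not called with library sizes alone (adjusted p = 0.0543), limma on log2 of FPKM plus 1 or 0.1 (0.0657 and 0.0692) or gene-length offsets (0.0623), where 0 members were called lower, and stayed called with RLE factors (0.0451), no filter (0.0088) and a mean of at least 50 counts (0.0494), all by Benjamini-Hochberg adjustment. Leaving out each liver gave 0 to 1 members called lower, 39 to 387 of all genes (39, 57 and 146 without RD replicates 1, 2 and 3, and 104 without HCD replicate 3) and 1 to 11 of the listed pathway genes, against 428 and 9. All genes called were 1118 by DESeq2 (636 higher, 482 lower), 649 with no filter, 251 with length offsets, 319 with library sizes alone and 2739 at an unadjusted p of 0.05 or less, where 2 members were lower. DESeq2 called 19 listed pathway genes. Direction turned for Fads3 without HCD replicate 2 and for Elovl5 without RD replicate 3 (leaving out livers gave log2 fold changes of −0.37 to 0.0292 and −0.52 to 0.0285). It also turned for Elovl2 over Elovl5 without RD replicate 2 or HCD replicate 1 (log2 differences of −0.36 to 0.0423) and for Elovl5 over Fads2 without RD replicate 3 or HCD replicate 2 (−0.20 to 0.21). The causes were not tested. Fads3 rests on the fewest reads of the 7 members.

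Replicate numbers did not pair the livers: the deviations of same-numbered livers correlated at −0.08, 0.12 and −0.03, and not every liver correlated best with its own number. With the replicate number as a block, 0 members were called lower (Fads1, adjusted p = 0.0673, by edgeR's quasi-likelihood test), 136 of all genes and 3 listed pathway genes, and with length offsets as well 0 and 96 (Fads1, adjusted p = 0.0806).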

Other observations

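In edgeR 8 genes of the 7 pathway lists had an adjusted p from 0.05 to 0.1, a range chosen after their values were seen. Cyb5r3, the reductase that passes electrons to cytochrome b5, was at 585.1, 531.7 and 634.8 CPM with RD and 257.2, 295.9 and 409.8 with HCD, a log2 difference of −0.86 (adjusted p = 0.0552, edgeR). All HCD livers lay below all RD livers. Lpcat3, which places polyunsaturated chains in phospholipids, was at 73.06, 79.25 and 94.39 CPM with RD and 110.4, 129.7 and 123.4 with HCD, with a log2 fold change of 0.56 (adjusted p = 0.0731, edgeR), and every HCD liver was above every RD liver. Insig2, a relative of Insig1, was at 0.86 on the same scale (adjusted p = 0.0636, edgeR), opposite in sign to Insig1, and the difference between the genes was not tested. The others were Nr1d2 (log2 fold change −0.95, adjusted p = 0.0522, edgeR), Ptgs1 (0.87, adjusted p = 0.0557), Alox12 (3.12, adjusted p = 0.0559), Scap (−0.63, adjusted p = 0.0622) and Ephx1 (0.91, adjusted p = 0.0836). DESeq2, which called 8.53% of all genes, called all 8, with adjusted p from 0.000515 for Cyb5r3 to 0.0177 for Lpcat3. Over up to 16 alternatives, DESeq2 among them, each was called in 1 to 4.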
